A study of Mus musculus with 11 samples.

Results

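The genes described here are 35 mouse genes of the G2/M transition and mitosis, chosen by name from a list of cyclins, mitotic kinases, spindle checkpoint proteins, kinesins, kinetochore proteins and cytokinesis factors. They are 35 of the 24143 genes in the count table, each read from the row of its RefSeq transcripts with the highest mean count. All 35 had a row, and all 35 passed the filter on low counts with 13536 genes in all. RNA sequencing counts came from HT22, a mouse hippocampal cell line immortalized with pSV40, and from HT22[TR/TO-Klf9], a stably transfected derivative kept under zeocin and blasticidin in which doxycycline induces Klf9, a zinc finger transcription factor. The series asked which genes Klf9 regulates.

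The 4 groups were parent cells given DMSO vehicle, parent cells given doxycycline at 0.5 µg/ml, TR/TO-Klf9 cells given vehicle and TR/TO-Klf9 cells given doxycycline at the same dose, all for 8 hours from the day after plating and all in medium with serum. The labels name 11 samples, but the columns of TR/TO-Klf9 vehicle 3 and of its doxycycline 1 were identical in all 33815 rows. This library, called the shared library here, was left out of both groups and is shown apart. The comparisons therefore rest on 3 parent vehicle, 3 parent doxycycline and 2 TR/TO-Klf9 vehicle libraries and on 1 TR/TO-Klf9 doxycycline library, number 2, which was assumed to vary like the others. Nothing in the labels tells separate cultures from repeat libraries, so the p-values cover the spread between these libraries, which may be technical. The labels also do not say whether the TR/TO-Klf9 line is a single clone or which promoter drives the cassette, and a difference between the lines rests on 1 derived line.

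Cells enter mitosis when cyclin B activates the kinase Cdk1, which Cdc25 phosphatases switch on and Plk1 reinforces. Aurora kinases and kinesins then build the spindle, the spindle checkpoint holds Cdc20 and the anaphase-promoting complex until every kinetochore is attached, and a contractile ring divides the cell. Transcripts of these genes accumulate in G2 and mitosis of each cycle, so in dividing cultures their summed level follows the share of cells in those phases. In SV40-immortalized cells the viral large T antigen binds p53 and the RB family, which otherwise restrain many of these genes. Fewer cells in G2/M and less RNA per such cell cannot be told apart in these bulk libraries.

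Many promoters of this group are known to carry CCAAT boxes, which the factor NF-Y binds, and a cell cycle homology region, TTTGAA, which the DREAM and FOXM1-MuvB complexes bind. RefSeq promoter windows from 250 bases before to 50 after the gene start (GRCm38.p6) were on hand for 29 of the 35 members. The windows below are shown because they belong to the cyclin B genes and Plk1, which rose after doxycycline in TR/TO-Klf9 cells, and to Cdk1 and Cenpf, which were lower in that line under vehicle. Cdc25c, which also rose after doxycycline, had no window on hand. Capitals mark CCAAT and TTTGAA on either strand (ATTGG and TTCAAA are their reverse complements). Ccnb1 lies at chr13:100786437-100786736 on the minus strand, Ccnb2 at chr9:70421505-70421804 on the minus strand, Plk1 at chr7:122159185-122159484 on the plus strand, Cdk1 at chr10:69352863-69353162 on the minus strand and Cenpf at chr1:189688037-189688336 on the minus strand. Each is written 5′ to 3′ along the gene.
Ccnb1: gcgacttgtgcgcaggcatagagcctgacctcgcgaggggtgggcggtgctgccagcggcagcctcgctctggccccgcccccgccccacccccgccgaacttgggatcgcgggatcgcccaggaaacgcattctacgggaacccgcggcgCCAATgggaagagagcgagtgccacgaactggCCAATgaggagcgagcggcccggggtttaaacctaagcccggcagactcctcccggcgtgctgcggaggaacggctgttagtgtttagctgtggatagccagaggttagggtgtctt
Ccnb2: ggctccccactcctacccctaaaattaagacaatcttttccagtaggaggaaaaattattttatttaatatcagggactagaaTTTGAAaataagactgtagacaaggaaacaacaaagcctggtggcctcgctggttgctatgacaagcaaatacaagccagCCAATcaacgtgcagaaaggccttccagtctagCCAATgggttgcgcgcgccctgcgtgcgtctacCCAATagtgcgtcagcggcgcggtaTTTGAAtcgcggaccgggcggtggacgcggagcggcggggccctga
Plk1: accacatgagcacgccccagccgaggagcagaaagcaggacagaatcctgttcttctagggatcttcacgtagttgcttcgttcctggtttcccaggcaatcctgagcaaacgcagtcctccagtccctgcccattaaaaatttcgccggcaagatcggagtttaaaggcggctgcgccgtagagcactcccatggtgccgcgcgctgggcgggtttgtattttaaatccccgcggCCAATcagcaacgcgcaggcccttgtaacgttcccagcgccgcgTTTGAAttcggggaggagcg
Cdk1: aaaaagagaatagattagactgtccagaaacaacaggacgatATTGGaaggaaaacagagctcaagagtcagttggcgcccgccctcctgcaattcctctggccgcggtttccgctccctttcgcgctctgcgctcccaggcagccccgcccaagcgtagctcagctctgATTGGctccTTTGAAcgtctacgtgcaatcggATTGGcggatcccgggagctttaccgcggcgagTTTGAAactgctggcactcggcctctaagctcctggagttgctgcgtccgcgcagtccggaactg
Cenpf: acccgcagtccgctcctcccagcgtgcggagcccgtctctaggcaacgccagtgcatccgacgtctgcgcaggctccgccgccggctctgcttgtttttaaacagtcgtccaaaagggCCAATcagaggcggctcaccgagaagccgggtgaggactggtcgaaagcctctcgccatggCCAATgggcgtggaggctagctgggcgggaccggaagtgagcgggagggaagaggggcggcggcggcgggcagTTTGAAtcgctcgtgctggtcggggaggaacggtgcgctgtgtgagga
The Ccnb2 and Cdk1 windows each held 3 CCAAT boxes and 2 TTTGAA elements, the Cenpf window 2 and 1, the Plk1 window 1 and 1, and the Ccnb1 window 2 CCAAT boxes and 0 of TTTGAA.

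Over the 29 windows, CCAAT was present in 22 (75.9%), against 37.4% of all 32851 windows and 39.3% of those of 10446 other tested genes. TTTGAA was present in 21 (72.4%), against 17.9% and 12.1%. Both occurred together in 18 (62.1%), against 6.95% and 5.01%, and 16 windows (55.2%) held at least 2 CCAAT boxes, against 11.7% and 15.0%. Of the letters that KLF and SP factors are known to bind, GGGCGG was present in 23 windows (79.3%, against 35.7% and 63.0%) and CACCC in 13 (44.8%, against 57.5% and 62.0%). Both strands were searched and matches of different motifs may overlap. These matches describe letters in the window, not binding. The read counts were not set against the motifs.

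Klf9 stood at 48.7 and 44.1 CPM, library-size-scaled counts after TMM, in the TR/TO-Klf9 vehicle libraries, at 101 in the doxycycline library and at 45.8 in the shared library (log2 change 1.13 ± 0.08 SE, adjusted p = 7.45e-07 by edgeR). The libraries held between 10302431 and 18902784 counts, and the lone doxycycline library of that line held 12383212. Of the defining neuron markers, Rbfox3, Map2 and Elavl4 stayed at or under 0.313 CPM in every library, while the fibroblast genes Col1a1 and Vim stood at 639 to 893 and 576 to 769 CPM, so the counts do not carry a mature neuronal pattern. Other fibroblast markers differed between the lines. Acta2 stood at no more than 41.8 CPM in parent and at 124 to 145 in TR/TO-Klf9 libraries. Pdgfrb stood at 32.9 to 40.8 and 61.4 to 68.9, and Postn at 10.1 to 11.6 and 26.7 to 33.9. The marker ranges and sums given here leave out the shared library. It stood at 129 CPM for Acta2, 75.8 for Pdgfrb, 27.2 for Postn and 896 for Col1a1. The 6 fibroblast markers summed to 2444 to 3271 CPM in parent and 2847 to 2955 in TR/TO-Klf9 libraries, with no marker at 0. Their part in the comparison of the lines was not tested. The 7 neuron markers summed to 32.0 to 37.7 CPM in parent libraries and 12.3 to 20.2 in the other line (Tubb3 29.6 to 35.3 and 10.7 to 14.1). The 4 microglia markers summed to 1.58 to 2.64 CPM in parent libraries and 12.6 to 14.5 in TR/TO-Klf9 libraries, mostly Csf1r, with Cx3cr1 at most 0.0990. The part of these shifts in the results below was not tested.

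The members were all abundant. Per kilobase of transcript the mean level over the 9 libraries ran from 13.0 CPM for Ccnb1 to 119.6 for Top2a, the topoisomerase that untangles sister chromatids. Ccna2, the cyclin of S phase and G2, stood at 117 CPM per kilobase, the cytokinetic scaffold Anln at 97.9 and the centromeric histone Cenpa at 93.3. At the lower end stood Ndc80, which binds microtubules at the kinetochore, at 17.3, Cenpf at 19.5 and Ccnb2 at 20.4. The marker genes of dividing cells (Ccnb1, Plk1 and Cdc25c) summed to 174 to 189 CPM in parent libraries, to 145 and 180.4 in TR/TO-Klf9 vehicle 1 and 2, and to 212 in the doxycycline library. All of these markers are among the members called after doxycycline below, so this sum is not independent of those calls. Mki67 and Top2a were among the 7 members below both vehicle libraries there, and 23 members lay above both. The group as a whole summed to 5760 to 6270 CPM in parent vehicle, 6200 to 6340 in parent doxycycline, 5230 and 5640 in TR/TO-Klf9 vehicle 1 and 2, 5600 in TR/TO-Klf9 doxycycline and 5750 in the shared library.

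**Figure D1:**
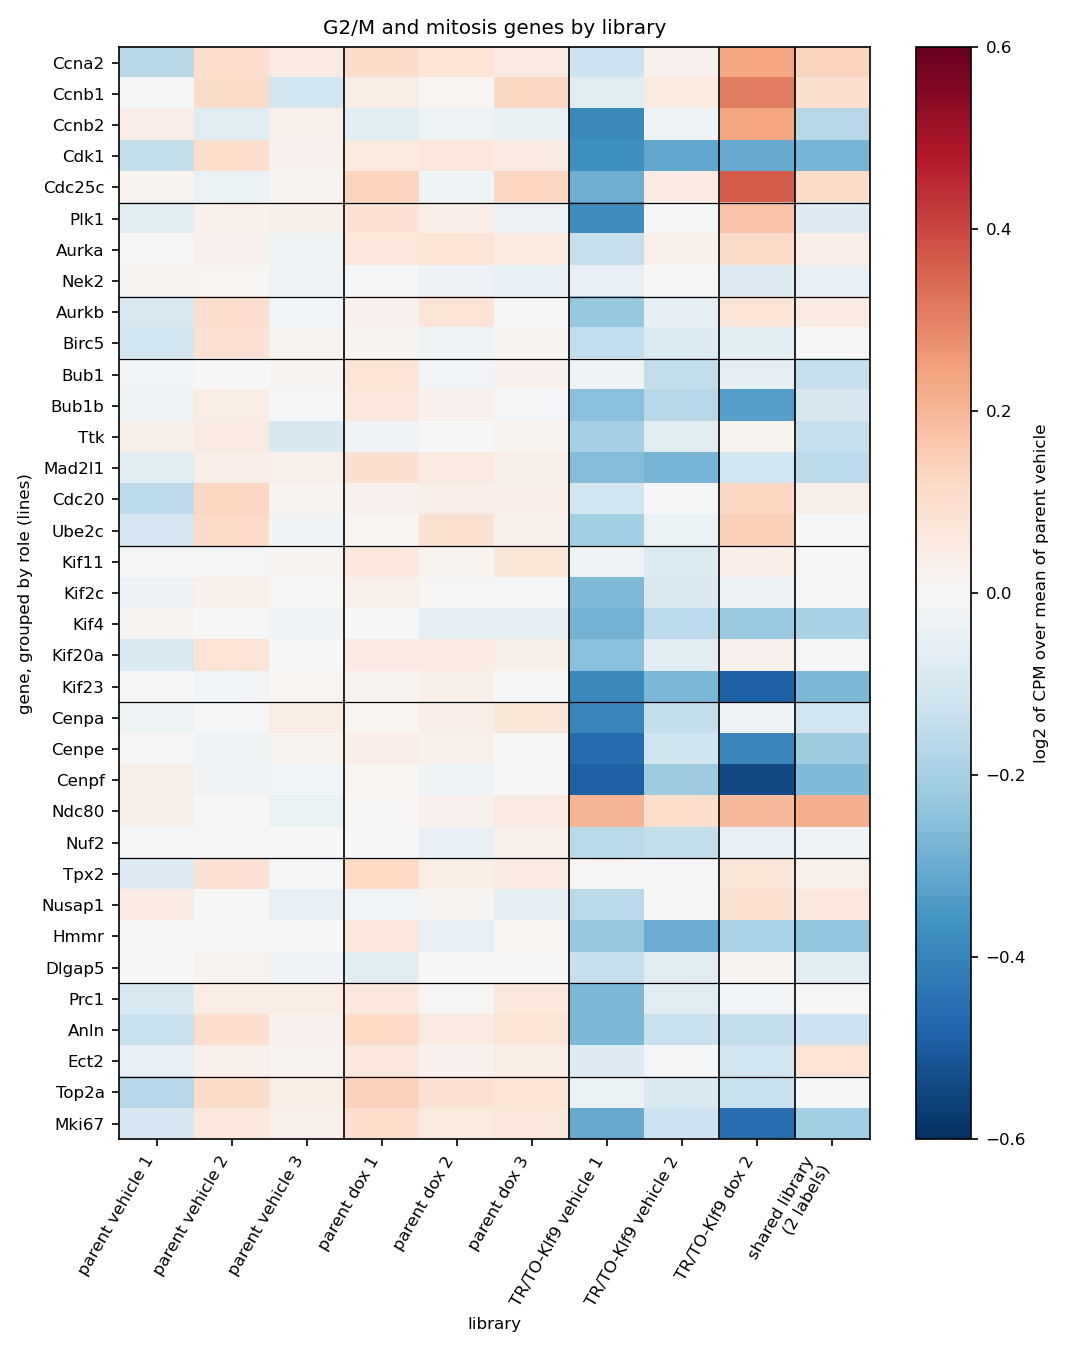
Each row is 1 of the 35 genes and each column a library; colour gives log2 of CPM over the mean of the 3 parent vehicle libraries, and horizontal lines separate roles. TR/TO-Klf9 vehicle 1 is the column in which most rows are blue, and Cdc25c and Ccnb1 are the strongest red cells of the doxycycline column, where Cenpf and Kif23 are the strongest blue.

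TR/TO-Klf9 vehicle 1 stood below the other libraries of its line for most members, which matters for every comparison that uses it. Of the 35 members 28 were lower in vehicle 1 than in vehicle 2 (median log2 ratio −0.13, range −0.37 to 0.11), when 49.9% of all genes tested were higher there. Against the shared library 32 of 35 were lower (median −0.15), when 48.8% of all genes were. The G1/S and DNA replication genes did not share this: 25 of 36 were higher in vehicle 1 than in vehicle 2 (median 0.07). Vehicle 2 and the shared library were closer for the mitotic genes, with 26 of 35 lower in vehicle 2 and a median of −0.04. Over all genes, chi-square per degree of freedom between vehicle 1 and vehicle 2 was 7.60, against 0.953 to 5.76 between replicates of the parent groups. The spread that the test shared across groups came mostly from the parent libraries.

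After doxycycline in TR/TO-Klf9 cells, 4 members rose and none fell: Cdc25c, Ccnb2, Plk1 and Ccnb1. Across all genes tested, 6.44% rose and 11.4% fell by the same test (edgeR's quasi-likelihood test, adjusted p of 0.05). The other 31 did not pass. At an unadjusted p under 0.05 by edgeR, 12 members were higher and 3 lower, against 4342 of all 13536 genes in either direction. The median log2 change over the 35 was 0.10, with 26 above 0, against −0.01 over all genes tested. The range was −0.25 for Mki67, the proliferation antigen that coats mitotic chromosomes, to 0.47 for Cdc25c.

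The cyclins, Cdk1 and their activator were the highest role group, with a median log2 change of 0.32 and 3 of 5 past the threshold. Cdc25c, the phosphatase that activates Cdk1, stood at 41.0 and 52.2 CPM in TR/TO-Klf9 vehicle 1 and 2 and at 64.7 after doxycycline, with 54.2 in the shared library. In parent cells it stood at 51.1, 48.9 and 50.9 under vehicle and at 55.2, 49.5 and 55.0 under doxycycline. The doxycycline library was above every other library, by 1.39-fold over the vehicle mean (log2 0.47 ± 0.11 SE, adjusted p = 0.00813 by edgeR).

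Ccnb2, a B-type cyclin found at the Golgi, stood at 24.4 and 31.2 CPM in TR/TO-Klf9 vehicle 1 and 2, at 37.5 after doxycycline and at 28.4 in the shared library. Its parent values were 32.8, 30.3 and 32.5 under vehicle and 30.3, 31.2 and 30.9 under doxycycline. Doxycycline was highest again, and vehicle 1 lay well under all others (log2 0.43 ± 0.12 SE, 1.35-fold, adjusted p = 0.0195 by edgeR).

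Ccnb1, the main cyclin partner of Cdk1 at mitotic entry, stood at 29.5 and 32.3 CPM under vehicle and 38.5 after doxycycline in TR/TO-Klf9 cells, with 33.2 in the shared library. Parent cells gave 30.9, 33.5 and 28.7 under vehicle and 32.0, 31.2 and 33.9 under doxycycline. Both TR/TO-Klf9 vehicle values lay among the parent values, and the doxycycline value lay above all of them (log2 0.32 ± 0.10 SE, 1.25-fold, adjusted p = 0.0450 by edgeR). Ccna2 had 307.8 and 342 CPM under vehicle and 395 after doxycycline (log2 0.28 ± 0.10 SE, adjusted p = 0.0602). Cdk1 itself had 152 and 158 CPM under vehicle and 159 after doxycycline (log2 0.04 ± 0.08 SE, adjusted p = 0.796).

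Among the mitotic kinases, Plk1, which acts from mitotic entry to cytokinesis, stood at 74.2 and 95.9 CPM under vehicle and 108 after doxycycline, with 91.3 in the shared library. Parent cells gave 91.9, 98.1 and 98.6 under vehicle and 102, 99.0 and 93.8 under doxycycline. The difference between vehicle 1 and vehicle 2 (log2 −0.37) was larger than that between vehicle 2 and doxycycline, and the fitted change was 0.35 ± 0.11 SE (1.27-fold, adjusted p = 0.0434 by edgeR). Aurka, the centrosomal Aurora kinase, stood at 97.0 and 109 CPM under vehicle and 115 after doxycycline (log2 0.16 ± 0.07 SE, adjusted p = 0.125). Nek2, which splits centrosomes, had a log2 change of −0.05 ± 0.06 SE.

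**Figure D2:**
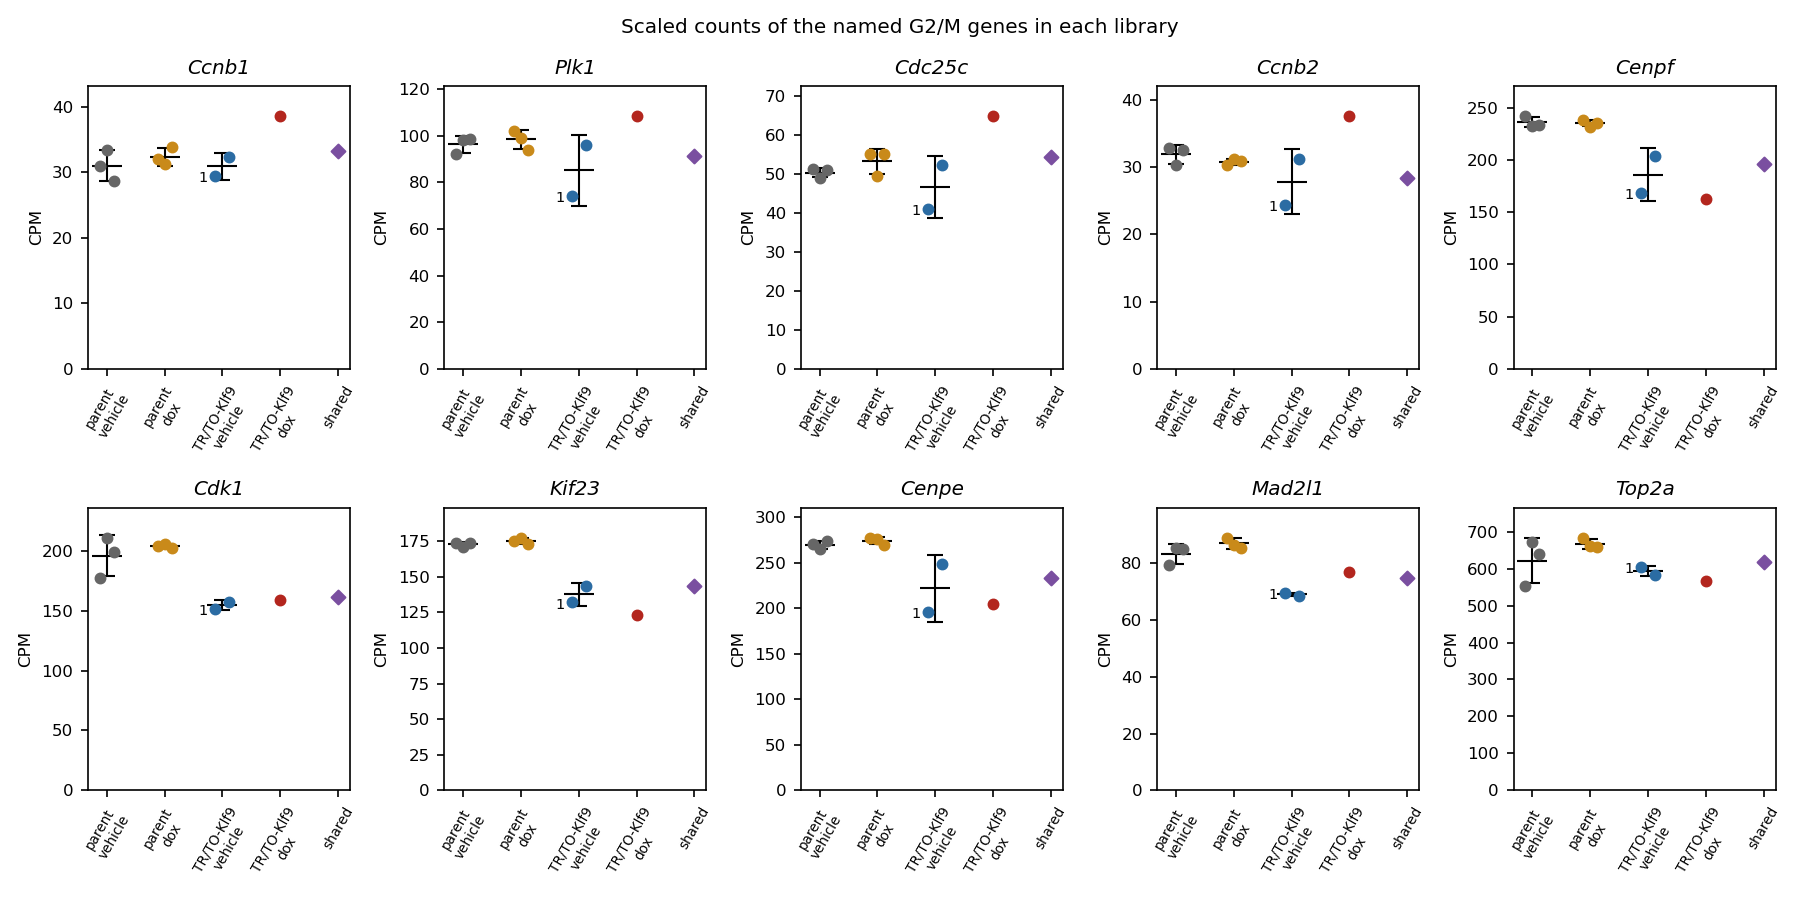
CPM of 10 members in each library; bars give the mean ± SD of groups with more than 1 library, 1 marks TR/TO-Klf9 vehicle 1 and the diamond the shared library. For Ccnb1, Plk1, Cdc25c and Ccnb2 the TR/TO-Klf9 doxycycline point is the highest of all; for Cenpf, Cdk1, Kif23, Cenpe and Mad2l1 the TR/TO-Klf9 points lie below all 6 parent points.

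In the chromosomal passenger complex, which corrects wrong attachments, Aurkb had a log2 change of 0.22 ± 0.08 SE (adjusted p = 0.0795) and Birc5 of 0.05 ± 0.08. In the checkpoint group, Ttk and Mad2l1, a kinase and the inhibitor that captures Cdc20, stood at 0.15 ± 0.08 and 0.16 ± 0.07. Cdc20 and Ube2c, which drive cyclin destruction, stood at 0.18 ± 0.09 and 0.26 ± 0.10, while the checkpoint pair Bub1 and Bub1b stood at 0.03 ± 0.07 and −0.13 ± 0.07. None of these 8 genes passed.

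The structural genes of the spindle and kinetochore were spread on both sides of 0. Kinesins ran from −0.16 for Kif23, the central spindle motor, to 0.18 for Kif20a, and kinetochore genes from −0.20 for Cenpf to 0.24 for Cenpa (adjusted p = 0.0531 for the latter). All 4 spindle assembly genes (Tpx2, Nusap1, Hmmr and Dlgap5) lay between 0.07 and 0.17. The cytokinesis genes Prc1, Anln and Ect2 lay between −0.07 and 0.15, and Top2a and Mki67 stood at −0.07 and −0.25. Mki67 had 488 and 551 CPM under vehicle and 438 after doxycycline, below every other library, yet its adjusted p was 0.107.

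Over the list, more members lay above both vehicle libraries than below them. The doxycycline library lay above both vehicle libraries for 23 of 35 members, when 36.6% of all genes tested did so. It lay below both for 7 of 35 (Bub1b, Nek2, Kif23, Cenpf, Top2a, Mki67 and Ect2), when 38.6% of all genes did. Against the shared library the members were split, with 19 higher and 16 lower in the doxycycline library and a median of 0.03. Cdc25c, Ccnb2, Plk1 and Ccnb1 were 0.26, 0.40, 0.25 and 0.22 above the shared library on the log2 scale.

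**Figure D3:**
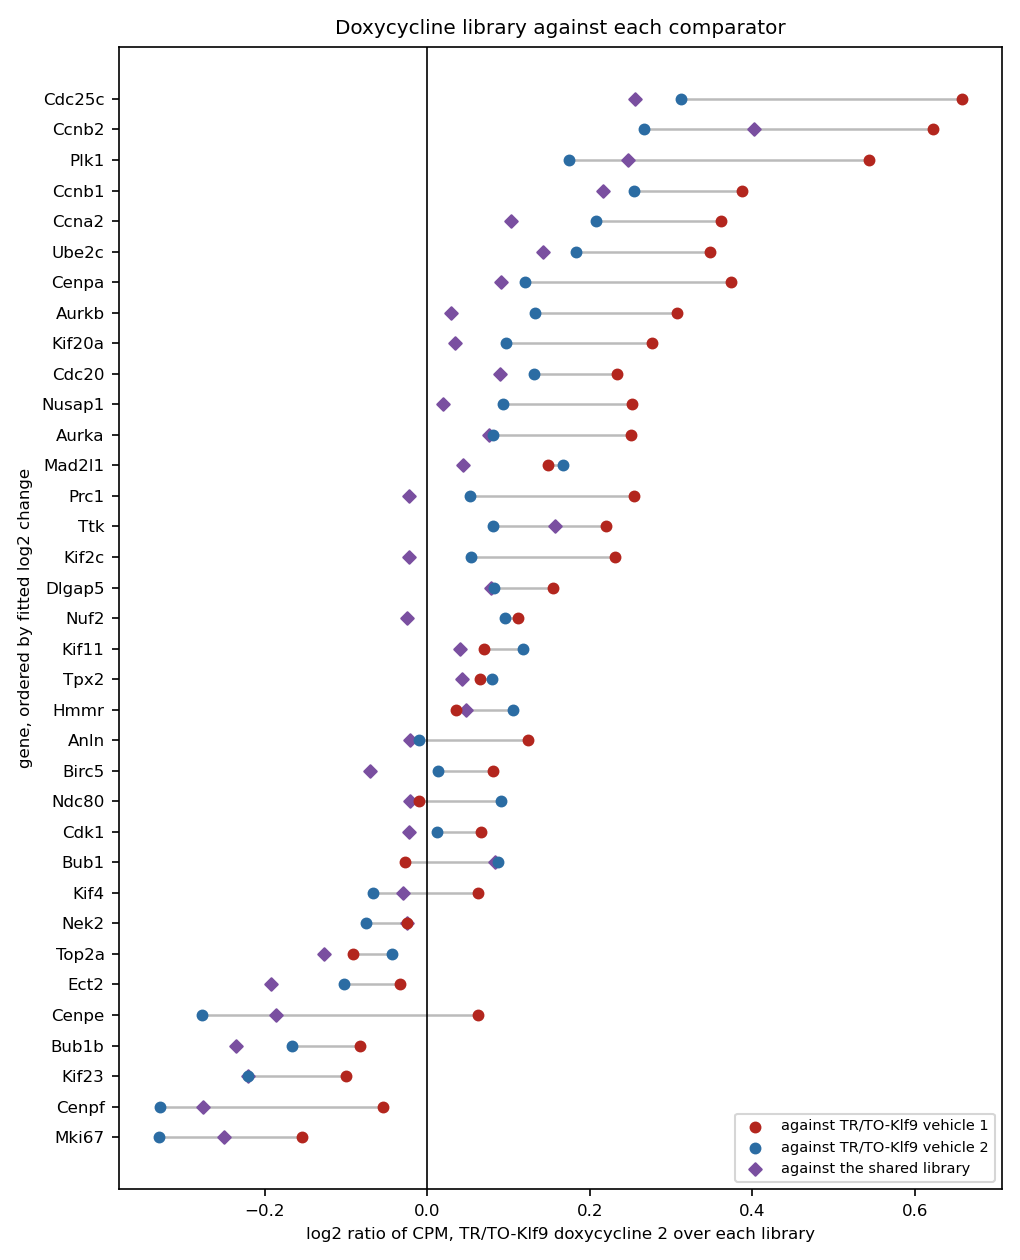
For each of the 35 genes, the log2 ratio of the TR/TO-Klf9 doxycycline library to TR/TO-Klf9 vehicle 1 (red), vehicle 2 (blue) and the shared library (diamond), ordered by the fitted change. Red points lie to the right of blue ones for most genes, and 26, 25 and 19 genes lie above 0 against the 3 libraries in that order.

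The calls depended on which vehicle library stood in the fit. Without vehicle 1, Cdc25c was the only member that rose (log2 0.31, adjusted p = 0.0112 by edgeR), and 4 members fell: Cenpf by 0.33, Mki67 by 0.33, Cenpe by 0.28 and Kif23 by 0.22; 8.11% of all genes rose and 14.6% fell in that fit. Ccnb2, Ccnb1 and Plk1 then stood at 0.27, 0.25 and 0.17, with adjusted p of 0.0611, 0.0957 and 0.0773. Without vehicle 2, 15 members rose and none fell, among them Ccna2, Aurka, Aurkb, Cenpa and Prc1, when 12.5% of all genes rose. With the shared library added as another vehicle library, Cdc25c, Ccnb2, Plk1 and Ccnb1 passed again. With it added as another doxycycline library, 0 members and 0 genes of the table passed by edgeR. At an unadjusted p under 0.05, 12 of 35 members did, as did 2044 genes of the table. With only the 3 TR/TO-Klf9 libraries in the fit 0 members passed by edgeR, and 0.55% of all genes did. At an unadjusted p under 0.05 the counts were 5 of 35 members and 2009 of 13279 genes. DESeq2 on all 9 libraries called Cdc25c alone, with 2.04% of all genes up, while Ccnb2, Plk1 and Ccnb1 stood at 0.44, 0.35 and 0.33 (adjusted p of 0.0580, 0.0559 and 0.156).

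The size of the change followed transcript length. Across the 35 members, Spearman's rho between log2 change and transcript length was −0.783, and −0.344 across all 13258 tested genes with a length. This is a description of genes that share the same 3 libraries. The 13 members shorter than the median tested transcript (2794 nt) all had a positive change, with a median of 0.22, while of the 22 longer ones 13 were positive, with a median of 0.04. The 4 genes that rose had transcripts of 1531 to 2489 nt, and Cenpf, Mki67 and Cenpe, with 11130, 10061 and 7910 nt, were 3 of the 5 lowest. In parent cells rho was 0.017, and between the lines −0.189.

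After the length trend of each library was removed, rho over the members was −0.378, and −0.039 over all genes. Cdc25c was then the only member past the threshold (log2 0.41, adjusted p = 0.0253 by edgeR), when 3.78% of all genes rose and 7.05% fell. Ccnb2, Plk1 and Ccnb1 stood at 0.34, 0.29 and 0.28, with adjusted p of 0.0795, 0.106 and 0.0971. Cenpf moved from −0.20 to 0.09, Mki67 from −0.25 to 0.02 and Cenpe from −0.12 to 0.09, and Kif23 stayed at −0.16. Cenpf, Mki67 and Cenpe therefore lay on the other side of 0 after the correction, and Kif23 and the cyclin and kinase genes did not.

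**Figure D4:**
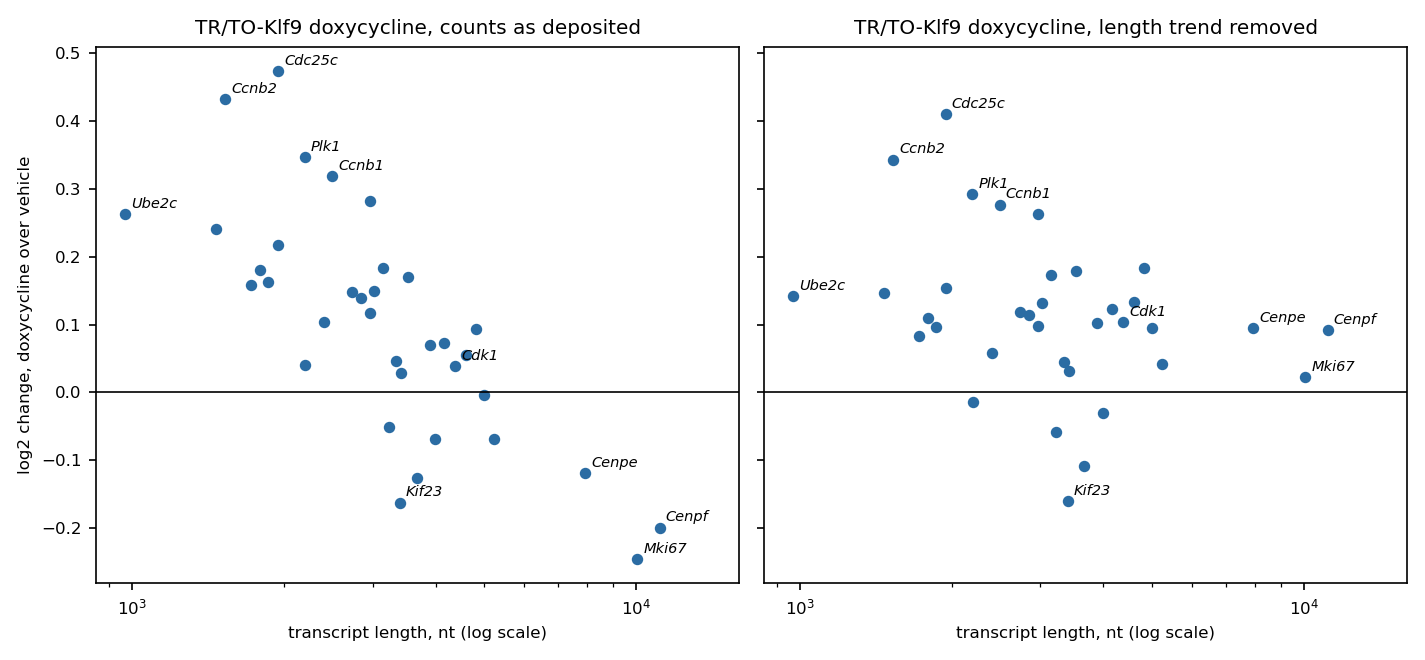
Log2 change after doxycycline in TR/TO-Klf9 cells against transcript length (log axis) for the 35 genes, with counts as deposited on the left and with the length trend of each library removed on the right. On the left the short genes Cdc25c and Ccnb2 are highest and the long genes Mki67 and Cenpf lowest; on the right Mki67, Cenpf and Cenpe lie slightly above 0.

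In parent cells doxycycline left every member close to its vehicle level. No member passed, and 0% of all genes tested did (0 by edgeR and 0 by DESeq2; 0 of the 35 members at an unadjusted p under 0.05, against 293 genes of the table). Log2 changes ran from −0.06 for Ccnb2 to 0.10 for Top2a, with a median of 0.04 and 28 of 35 above 0. The median over all genes was −0.004. Of the 36 G1/S and DNA replication genes 24 also lay above 0, with a median of 0.02. Parent vehicle 1 lay farthest from the other parent vehicle libraries (chi-square per degree of freedom 3.42 and 5.76, and lower between those). Without it the median over the 35 members was 0.01. Top2a stood at 553, 671 and 640.5 CPM under vehicle and 683, 661 and 658 under doxycycline, with overlapping groups. All 3 doxycycline libraries lay above all 3 vehicle libraries for 2 members, Aurka and Kif11, the motor that pushes spindle poles apart, when 3.92% of all genes did so. In TR/TO-Klf9 cells Top2a stood at 604 and 584 CPM under vehicle, 566 after doxycycline and 619 in the shared library. For the 35 members the SE of the parent change was 0.04 to 0.08, and 98.5% of simulated 1.5-fold changes were called in the parent comparison. Shifts under 1.5-fold were not simulated, so this rate does not cover changes like the 1.25- to 1.39-fold rises called in TR/TO-Klf9 cells.

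The doxycycline response differed between the lines for 1 member. For Ccnb2 the change in TR/TO-Klf9 cells exceeded that in parent cells by 0.49 ± 0.14 SE on the log2 scale (adjusted p = 0.0419 by edgeR), when 2.75% of all genes had a higher and 6.92% a lower response. Cdc25c differed by 0.39 ± 0.13 (adjusted p = 0.0734), Plk1 by 0.31 ± 0.13 (0.160) and Ccnb1 by 0.25 ± 0.13 (0.228), so for these the rise in TR/TO-Klf9 cells was not shown to differ from the parent response. The Ccnb2 difference was 0.33 without TR/TO-Klf9 vehicle 1 (adjusted p = 0.0669) and 0.40 with the length trend removed (adjusted p = 0.132). Mki67 had the lowest difference, at −0.32 ± 0.12 SE (adjusted p = 0.105).

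Under vehicle, 14 of the 35 members were lower in the TR/TO-Klf9 line than in its parent and 0 were higher by edgeR. Across all genes tested, 20.1% were lower and 18.8% higher. At an unadjusted p under 0.05, 1 member was higher by edgeR and 0 by DESeq2, which also called 0 higher after adjustment. The median log2 difference over the members was −0.13, with 33 of 35 below 0, against 0.01 over all genes. This comparison shares the TR/TO-Klf9 vehicle libraries with the doxycycline comparison, so a low vehicle 1 value lowers the line and raises the response at once.

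The kinetochore group had the lowest role median, −0.26, with 4 of 5 genes lower. Cenpf, a large kinetochore and nuclear envelope protein, stood at 242, 233 and 234 CPM in parent vehicle and 169 and 204 in TR/TO-Klf9 vehicle, with 197 in the shared library. Under doxycycline it stood at 239, 232 and 236 CPM in parent cells and 162 in TR/TO-Klf9 cells. No TR/TO-Klf9 library reached any parent library, and the difference under vehicle was −0.34 ± 0.07 SE (1.27-fold lower, adjusted p = 5.32e-04 by edgeR).

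Cenpe, the kinesin that carries chromosomes to the spindle equator, stood at 271, 265 and 274 CPM in parent vehicle and 196 and 248 in TR/TO-Klf9 vehicle. Doxycycline libraries had 278, 276 and 270.0 CPM in parent cells and 205 in TR/TO-Klf9 cells, and the shared library had 233. Vehicle 1 and vehicle 2 differed by more than vehicle 2 and the parent libraries (log2 −0.28 ± 0.07 SE, adjusted p = 0.00754), and without vehicle 1 the difference was −0.12 (adjusted p = 0.138). Cenpa was lower by 0.26 and Nuf2, the partner of Ndc80, by 0.15. Ndc80 was the member with the highest difference, 0.15 ± 0.07 SE (adjusted p = 0.0743).

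Among the cyclin and Cdk1 genes only Cdk1 passed. It stood at 177, 211 and 199 CPM in parent vehicle and 152 and 158 in TR/TO-Klf9 vehicle, with 161 in the shared library. Parent doxycycline gave 204, 205 and 202 CPM and TR/TO-Klf9 doxycycline 159. Every TR/TO-Klf9 library, the shared one included, lay between 152 and 161 CPM and below the parent libraries (log2 −0.33 ± 0.06 SE, adjusted p = 4.47e-04). Ccnb1, its partner, differed by 0.00 ± 0.08 SE and Ccna2 by −0.04 ± 0.08.

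Of the kinesins 3 were lower. Kif23 stood at 173, 171 and 174 CPM in parent vehicle, 175, 177 and 173 in parent doxycycline and 132 and 143 in TR/TO-Klf9 vehicle, with 123 after doxycycline and 143 in the shared library. The groups did not overlap, and its difference had the smallest adjusted p of the 35 (log2 −0.33 ± 0.05 SE, adjusted p = 5.69e-05). Kif4, a chromosome-bound kinesin, was lower by 0.22 and Kif2c, which depolymerizes microtubules, by 0.17 (−0.08 without vehicle 1, adjusted p = 0.208).

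In the checkpoint group Mad2l1 and Bub1b were lower. Mad2l1 stood at 79.4, 85.6 and 85.1 CPM in parent vehicle, 89.0, 86.6 and 85.4 in parent doxycycline and 69.6 and 68.6 in TR/TO-Klf9 vehicle, with 77.1 after doxycycline and 74.8 in the shared library. Its vehicle 1 and vehicle 2 values were nearly the same, so this difference did not rest on vehicle 1 (log2 −0.27 ± 0.05 SE, adjusted p = 9.97e-04). Bub1b was lower by 0.20. The spindle gene Hmmr was lower by 0.26, Mki67 by 0.21, the contractile ring gene Anln by 0.20 and the midzone bundler Prc1 by 0.16. Mki67, Anln and Prc1 kept the call in 7, 6 and 5 of 18 alternatives; without vehicle 1 they stood at −0.12, −0.13 and −0.06 (adjusted p of 0.295, 0.268 and 0.445).

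**Figure D5:**
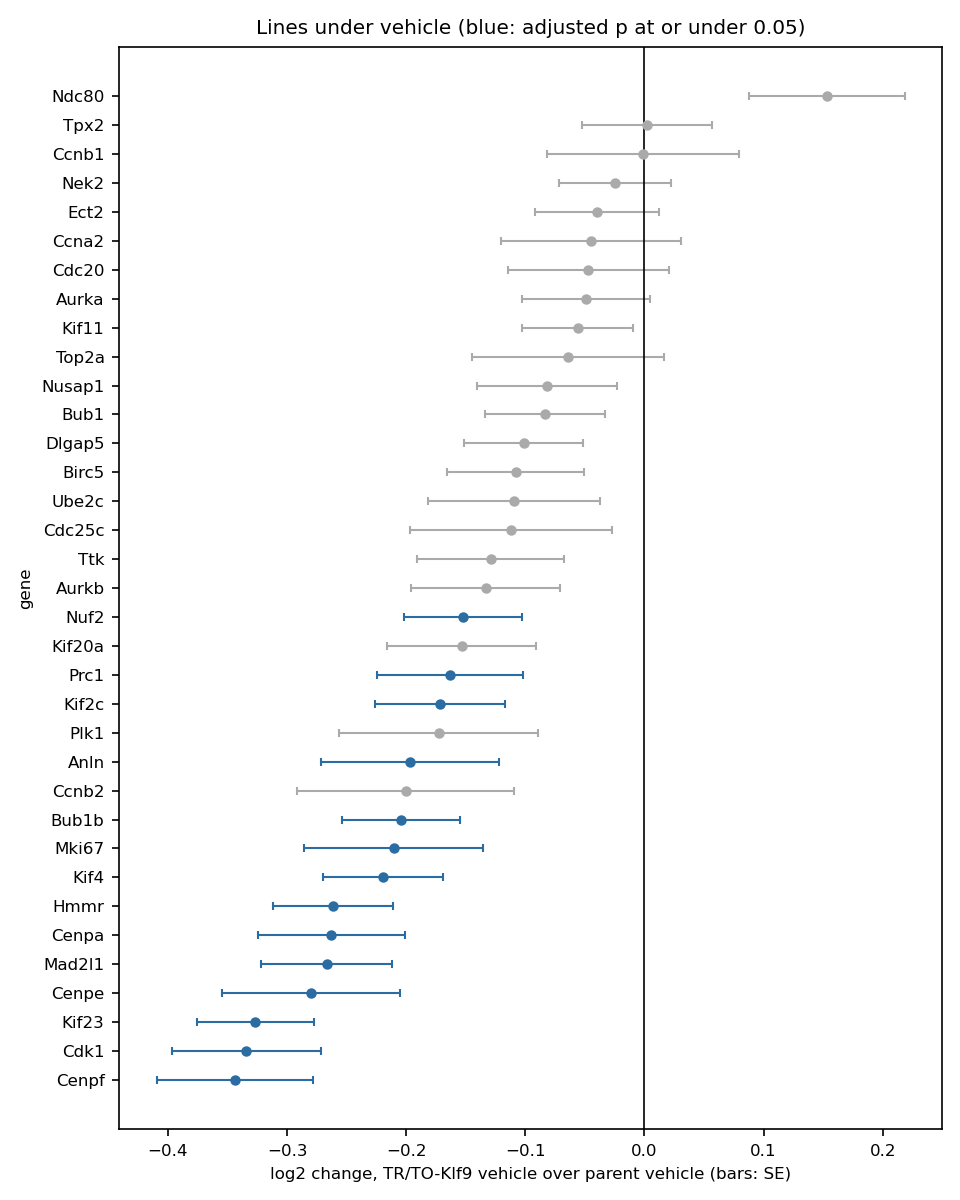
Log2 difference between TR/TO-Klf9 vehicle and parent vehicle for the 35 genes, with SE bars; blue marks genes with an adjusted p at or under 0.05. The 14 blue genes all lie below 0, from Cenpf at −0.34 to Nuf2 at −0.15, and Ndc80 lies highest at 0.15.

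Both TR/TO-Klf9 vehicle libraries lay below all 3 parent vehicle libraries for 15 of 35 members, when 27.3% of all genes did. Without TR/TO-Klf9 vehicle 1, 10 members were lower, 9 of them among the 14, with Bub1 added, when 18.1% of all genes were lower, and the median over the 35 moved from −0.13 to −0.06. Without vehicle 2, 24 were lower and 1, Ndc80, higher, when 23.2% of all genes were lower, and the median was −0.23. Cdk1, Bub1b, Mad2l1, Kif23, Kif4, Cenpa, Cenpf and Hmmr, 8 of the 14, were called in every one of the 18 alternatives, which included each library left out, DESeq2 and the length correction. Ccnb2, Cdc25c and Plk1 were lower only when vehicle 2 was left out.

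Other genes of the same pathways were counted from lists of partners, to be read against the 6.44% of all genes that rose and the 11.4% that fell. After doxycycline in TR/TO-Klf9 cells, 3 of 17 tested mitotic entry regulators rose and 0 fell: Cdkn3, a phosphatase that acts on Cdk proteins, by 0.60 ± 0.15 SE on the log2 scale, Ccnh, the cyclin of the Cdk-activating kinase, by 0.30 and Arpp19, an inhibitor of PP2A in mitosis, by 0.22. Of 25 kinetochore and centromere partners 5 rose and 1 fell, with the Ndc80 complex subunits Spc25 and Spc24 at 0.46 ± 0.08 and 0.30 ± 0.09 and the scaffold Knl1 at −0.30 ± 0.09. Of 17 anaphase-promoting complex and separase genes, 1 rose, the separase inhibitor Pttg1 at 0.49 ± 0.10. Of 16 G2/M transcription genes 1 fell, Tfdp1, a partner of E2F factors, at −0.56 ± 0.07. The 16 genes, which include Foxm1, Mybl2 and the MuvB core, ran from −0.56 to 0.18.

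The remaining lists were mixed. Of 19 spindle motors and microtubule factors 2 rose and 2 fell, with Numa1 at −0.43, Ckap5 at −0.25 and Knstrn at 0.26. Checkpoint and passenger partners had 1 up and 1 down of 13 (Cdca8 at 0.28 and Kntc1 at −0.20). The cytokinesis list, not all of it specific to cytokinesis, had 1 and 1 of 10 (Cdca3 at 0.25 and Cit at −0.40). Condensin and chromosome structure genes had 1 and 1 of 13 (Ncapg at 0.23 and Ncapg2 at −0.21). Of the 36 G1/S and DNA replication genes 4 rose and 2 fell, with Slbp at −0.35, Ccne1 at 0.33 and Rfc4 at 0.32. Lists with 1 call in 10 to 17 genes lay near the share over all genes. List medians lay between −0.01 and 0.08, against −0.01 over all genes.

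Between the lines under vehicle, where 20.1% of all genes were lower and 18.8% higher, the lists differed in their counts. Of the 10 genes on the cytokinesis list 8 were lower and 0 higher by edgeR (median −0.27). Among them were Depdc1a at −0.62 ± 0.11, the abscission organizer Cep55 at −0.36 ± 0.05 and Pimreg at −0.35 ± 0.08. That list includes mitotic genes not specific to cytokinesis, such as Depdc1a and Pimreg. Of 19 motors and microtubule factors 10 were lower and 0 higher (median −0.13), with the spindle pole gene Aspm at −0.47 ± 0.11 and the kinesins Kif18a at −0.31 ± 0.06 and Kif14 at −0.30 ± 0.08. The other 9 motor and microtubule genes did not pass. Kinetochore partners were split, with 6 higher and 4 lower of 25, as were checkpoint and passenger partners (2 and 2 of 13), mitotic entry regulators (2 and 3 of 17), anaphase-promoting complex and separase genes (2 and 4 of 17), condensin and chromosome structure genes (2 and 3 of 13) and G2/M transcription genes (3 and 5 of 16). G1/S and DNA replication genes had 9 higher and 6 lower of 36, with a median of 0.03, and Chaf1b, Cdc45 and Rfc4 stood at 0.53, 0.51 and 0.49. The summed level of that list was 4630 to 5050 CPM in parent libraries and 4870 to 5080 in TR/TO-Klf9 libraries, and the ranges overlapped.

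Some member counts may include other genes. Ccna2, Cdc20, Kif20a, Kif4, Ube2c, Nusap1 and Prc1 overlap a tested gene on the opposite strand, and no strand setting is given in the sources used here. Ccnb1, Ccnb2 and Kif4 have named pseudogenes that could share reads.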

How the data were processed

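RNA was extracted with TRIzol and oligo-dT-primed libraries were made, per the labels' protocols. The authors deposited 1 table of raw read counts, whole numbers for each RefSeq transcript in 11 samples; 0 columns went unused. The submitters' processing notes list CASAVA, FastQC, Bowtie, DESeq and build mm8. How reads were counted, whether strand was used and which tool versions ran is not given in the sources used here.

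Of 32923 accessions 32500 matched a gene symbol in a RefSeq table (GRCm38.p6), and the highest-mean row was kept per gene, since transcripts of a gene share reads. Among the members 10 had more than 1 row and 3 of these, Ttk, Kif20a and Kif2c, had differing rows. Their other rows were not tested. Members and gene lists were chosen with earlier results of these data known.

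Samples were grouped by title. The test was edgeR 4.0.16 in R 4.3.3, with filterByExpr, TMM and a robust quasi-likelihood fit of 4 group means to 9 libraries (5 residual degrees of freedom); p-values were adjusted by Benjamini-Hochberg over 13536 genes, threshold 0.05. SE is the log2 change over the root of F. Common dispersion was 0.00229, or a biological coefficient of 4.78%. CPM of the shared library was put on the scale of the other 9. The 3 parent doxycycline libraries differed from each other by little or nothing beyond random read sampling. On the chi-square scale given for replicates, 1 and 2 stood at 1.01, 1 and 3 at 1.03, and 2 and 3 at 0.953. All 3 were kept, since parent libraries of different treatment came nearly as close, down to 1.04.

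Values in every library were given for the 3 markers, for members past the threshold for doxycycline in TR/TO-Klf9 or the difference, for the 5 largest line differences and for the highest and lowest level; Mki67, Ccna2 and Aurka were added after their values were seen. At most 3 genes per other list were named. Lengths came from GENCODE M21 transcripts (97.9% of tested genes); the trend on log2 length was fitted by loess (span 0.4) as an offset. Alternatives were DESeq2 1.42.0, RLE scaling, a minimum of 1 CPM in 5 libraries or no filter, a block on replicate number, only the groups compared, the length offset, the shared library under either label, and each library left out.

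On simulated counts with 200 changed genes, the test found 94%, 100% and 100% of those shifted 1.5-, 2- and 4-fold for doxycycline in TR/TO-Klf9, 70.1%, 98.5% and 100% for the difference and 97%, 100% and 100% for the lines, with 9, 9 and 12 false calls. The simulation gave each group and each gene the same spread, with no shift under 1.5-fold. Other steps used Python 3.11.15, pandas 2.3.3, scipy 1.17.1 and matplotlib 3.10.9.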

Additional observations from a re-analysis of the deposited data

Results flagged for a closer look

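Ccnb2, a B-type cyclin, was the member whose doxycycline effect differed between the lines by the test of the difference itself. Its log2 change was 0.43 in TR/TO-Klf9 cells and −0.06 in parent cells, a difference of 0.49 ± 0.14 SE (adjusted p = 0.0419 by edgeR), and it was higher in the 1 doxycycline library than in both vehicle libraries. Over the alternatives the difference ran from 0.32 to 0.70 and its adjusted p from 4.20e-04 to 0.598, and 6 of 16 kept the call. Across all genes tested, 2.75% had a higher and 6.92% a lower response in the main fit. A count of 1 higher member in 35 lay near that share, so it does not set the group apart from other genes. TR/TO-Klf9 vehicle 1 had the lowest Ccnb2 level of all libraries, at 24.4 CPM, and the part of that library in the difference was tested only by leaving it out (0.33, adjusted p = 0.0669).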

How the results depend on the processing

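The count of members called after doxycycline in TR/TO-Klf9 cells was 4. It was 1 with DESeq2, 7 with no filter and with the stricter filter, 1 with the length trend removed, 0 with only the groups compared, 0 with the shared library as doxycycline, and 2 to 15 with each library left out. Over all genes 2410 were called; this was 1263 with DESeq2, 73 with only the groups compared, 1466 with the length trend removed, 0 with the shared library as doxycycline (0 by edgeR, 2044 at an unadjusted p under 0.05) and 1890 to 3800 with a library left out. For the difference of effects the member count of 1 became 0 with DESeq2, the length trend removed or the shared library as doxycycline, 2 with no filter and 0 to 8 with a library left out; over all genes 1309 became 672, 581 and 0 in the first 3, and 571 to 2910. Between the lines the 14 members became 9 with only the groups compared and 10 to 25 with a library left out. Over all genes 5264 were called between the lines, and 4165 with only the groups compared. With a parent library or the TR/TO-Klf9 doxycycline library left out, 4187 to 5153 were called. Without TR/TO-Klf9 vehicle 2 the called members were not all lower, since Ndc80 was higher (log2 0.19). In the parent line the counts stayed at 0 by edgeR in every alternative and by DESeq2. With the replicate number as a block, 1 member and 1381 genes were called after doxycycline in TR/TO-Klf9 cells, 0 and 607 for the difference, and 11 and 4670 between the lines; Cdc25c was the member that kept its call (adjusted p = 0.0363). Same-numbered libraries correlated at −0.0831 to 0.0185 in their deviations from group means, so these values showed no pairing by number. The lone TR/TO-Klf9 doxycycline library has no such deviation, so its pairing with vehicle 2 could not be checked. No member value reversed in sign while called. Of the 4 members that rose, Cdc25c kept the call in 15 of 17 alternatives, Ccnb2 in 11, Ccnb1 in 7 and Plk1 in 6. The doxycycline result without TR/TO-Klf9 doxycycline 2 has no value, since no such library remains, and the difference with only the groups compared is the main fit. With 1 TR/TO-Klf9 doxycycline library, its own spread is unknown; the causes of these shifts were not tested.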
